A study of Mus musculus with 6 samples.

Results

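The genes described here build, cap, cut, bundle and anchor filaments of actin, the protein that gives cells their shape and lets them crawl. The list was made by gene name and function, with no threshold on any measured value: 40 genes of the actin cytoskeleton, covering the actin monomers, the Arp2/3 complex and its activators, capping and severing proteins, monomer-binding and turnover proteins, bundling proteins, tropomyosins and proteins that tie filaments to the membrane. It was chosen with earlier results of these data known, so its shares beside those of all genes are descriptive only. Where several probe sets measure a gene, the brightest on average was taken, and only probe sets that carry 1 gene symbol were used. In this way 37 of the 40 genes were measured, out of 12393 genes in all. Actr2, Arpc1b and Arpc3 had no such probe set and were not analysed here.

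The study profiled mouse lung at the stage when scar tissue forms after bleomycin, a drug that breaks DNA and is widely used to produce lung fibrosis in mice. Bleomycin lungs came from wildtype male C57BL/6J mice aged 8 to 10 weeks that received 1 mg/kg bleomycin in 50 µl of saline. Saline lungs came from mice of the same strain, genotype, sex and age that received saline alone. Each group had 3 mice with 1 Affymetrix MOE430A array per mouse, and every lung was taken at day 14. How the dose was delivered is unsettled, as the design text says oropharyngeal and the labels of the samples say intratracheal. Trachea and main airways had been cut away and the whole frozen lobes were ground, so each value averages over all cell types of the lung; fewer cells of a type and less RNA per cell cannot be told apart.

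The bleomycin arrays carry the letters D, E and F and the saline arrays A, B and C. Values are on the log2 scale, so a difference of 1 is a doubling of the signal. Correlations between arrays over all probe sets were 0.986 to 0.995 within bleomycin lungs and 0.987 to 0.989 within saline lungs, against 0.965 to 0.985 between the groups. Array medians lay between 7.37 and 7.41. Saline B went against its male label: the female-specific RNA Xist stood at 11.40 and the Y-linked gene Eif2s3y at 4.05 there, while the other arrays had 7.23 to 7.88 for Xist and 7.23 to 8.02 for Eif2s3y. Bleomycin D stood apart on the first principal component, which held 55.4% of the variance, with a score of 44.3 against 12.9 for bleomycin E and 19.8 for bleomycin F. Values without saline B or bleomycin D are given beside the calls and the larger differences that they change, and for the gene groups compared.

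Actin filaments grow by adding monomers at the fast-growing barbed end and lose them at the other end. The Arp2/3 complex, switched on by proteins of the WASP and WAVE families, starts new branches and so pushes the cell edge forward, while capping proteins stop growth, cofilin and gelsolin cut filaments, and bundling proteins and tropomyosins make stable cables. In lung, phagocytes use branched actin to crawl and engulf, and fibroblasts, smooth muscle and endothelium use bundled, myosin-loaded actin to pull and to hold their junctions. Some of these genes have a form made mainly by blood cells, among them Coro1a, Lcp1 and Was, and these were grouped as leukocyte-restricted. Capg and Cotl1, abundant in leukocytes but made by other cells as well, were grouped as leukocyte-rich, and the other 32 measured genes as general.

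Of the 37 genes, 3 rose in bleomycin lungs and 0 fell at an adjusted p under 0.05 (limma, Benjamini-Hochberg over all probe sets tested). Across all genes on the array 3.70% were called higher and 1.90% lower, so the 3 genes called higher make up 8.11% of this list. These were Capg, Lcp1 and Fscn1. At an unadjusted p under 0.05 there were 11 genes higher and 2 lower (29.7% and 5.41% of the list), beside 11.7% and 11.0% of all genes. Differences lay above 0 for 28 of the 37 genes, or 75.7%, beside 43.0% of all genes. All bleomycin arrays stood above all saline arrays for 14 genes, or 37.8%, and below them for 3, or 8.11%, where 13.3% and 14.6% of all genes did so. The median difference over the 37 genes was 0.21, against -0.04 over all genes. Without saline B the median was 0.14 and 2 of the 3 calls were kept, Capg and Lcp1, while 2.47% of all genes were called higher. Leaving out another single array gave 1 call without saline A (Coro1c), where 1.32% of all genes were called higher, 1 without saline C (Lcp1, 2.15%), 2 without bleomycin D (Capg and Lcp1, 2.41%), 3 without bleomycin E (3.11%) and 1 without bleomycin F (Capg, 1.70%).

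**Figure D1:**
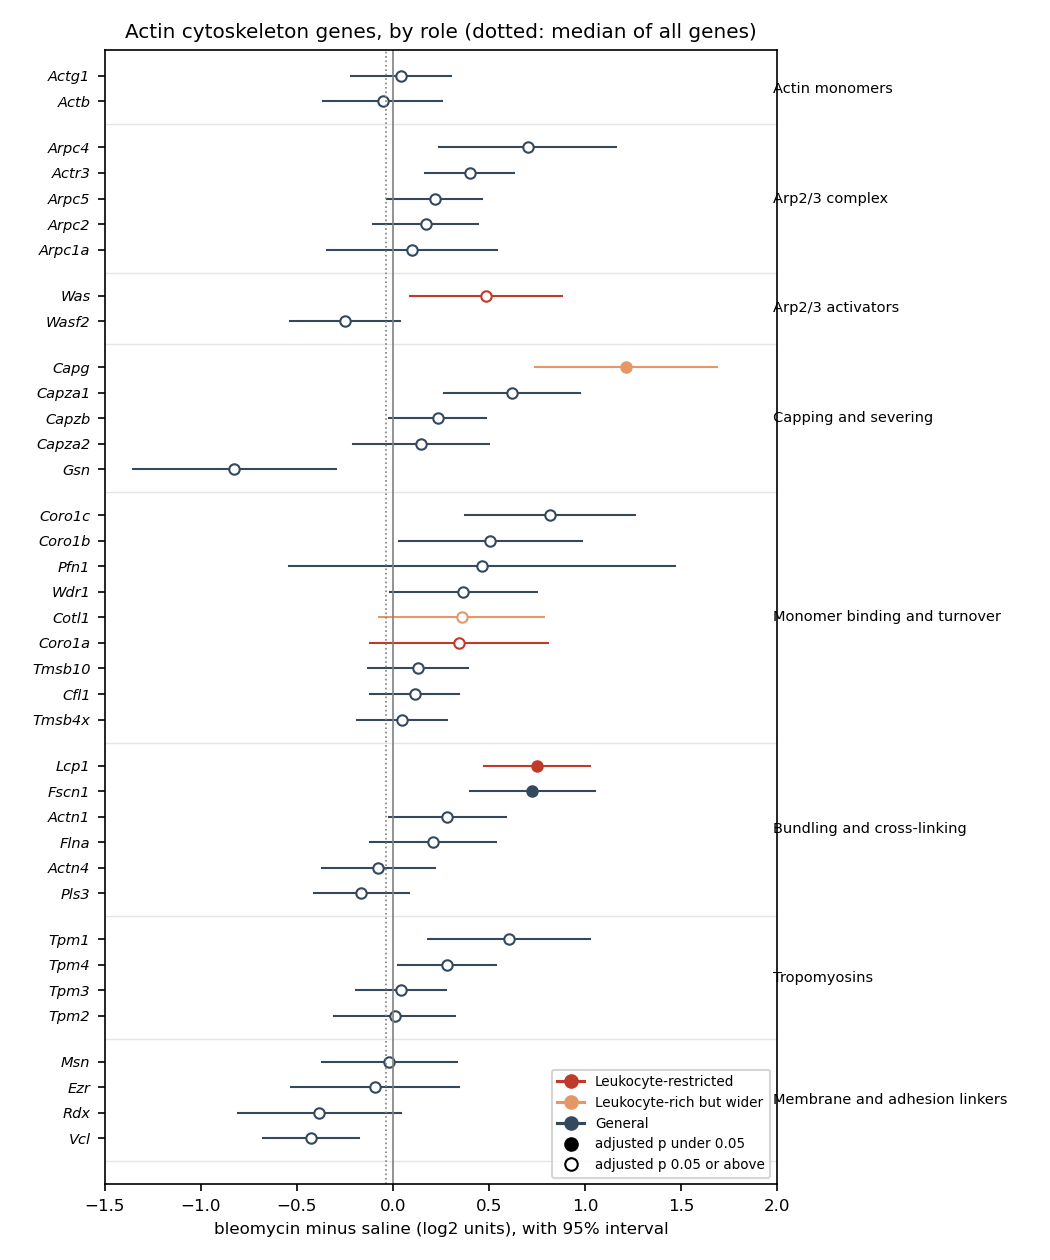
Difference between bleomycin and saline lungs for each of the 37 genes on the log2 scale, grouped by role, with the 95% interval from limma (n = 3 mice each). Filled points passed the adjusted p threshold of 0.05; Capg, Lcp1 and Fscn1 did, 28 of the 37 points lie right of 0, and the 4 membrane and adhesion linkers lie at or left of it.

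Capg showed the largest difference of the 37 genes. It encodes a macrophage-rich protein of the gelsolin family that caps barbed ends but does not cut filaments. Its values were 10.24, 9.89 and 9.76 in bleomycin lungs D, E and F, against 8.50, 9.20 and 8.55 in saline lungs A, B and C. Every bleomycin lung stood above every saline lung, and saline B was the highest of its group. The means were 9.96 ± 0.25 in bleomycin lungs and 8.75 ± 0.39 in saline lungs (SD, n = 3 each), a 2.32-fold rise (log2 difference 1.21 ± 0.21 SE, limma adjusted p = 0.017). The 95% interval of the difference was 0.74 to 1.69. Without saline B the difference was 1.44 (adjusted p = 0.0072), whereas the call was lost without saline A (adjusted p = 0.0781) and without saline C (0.0601).

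Lcp1, the plastin of blood cells that ties filaments into tight bundles, also rose. It read 11.75, 11.45 and 11.71 in bleomycin lungs D, E and F, against 10.78, 10.92 and 10.97 in saline lungs A, B and C. The lowest bleomycin lung lay well above the highest saline lung. Mean values were 11.64 ± 0.16 in bleomycin lungs and 10.89 ± 0.10 in saline lungs (SD, n = 3 each), a 1.68-fold rise (log2 difference 0.75 ± 0.12 SE, limma adjusted p = 0.0136). The gene's other probe set gave a difference of 0.72 and passed too. Leaving out saline B kept the call (adjusted p = 0.0377), and leaving out saline A (0.0594) or bleomycin F (0.0619) lost it.

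Fscn1 encodes fascin, which packs filaments into the stiff bundles of filopodia and is known from dendritic cells, neurons, endothelium and migrating cells. Its log2 values were 9.38, 8.90 and 9.19 in bleomycin lungs D, E and F, against 8.53, 8.30 and 8.46 in saline lungs A, B and C. The groups did not overlap, with bleomycin E nearest to the saline range. Fscn1 averaged 9.16 ± 0.24 in bleomycin lungs and 8.43 ± 0.11 in saline lungs (SD, n = 3 each), a 1.65-fold rise (log2 difference 0.73 ± 0.14 SE, limma adjusted p = 0.0284). The call was the least stable of the 3. It was kept in 1 of the 6 fits that leave out an array, the fit without bleomycin E (adjusted p = 0.0192), and the adjusted p was 0.0668 to 0.0955 in the other 5, including 0.077 without saline B. Its 4 probe sets gave differences of 0.73, 1.82, 0.14 and 0.21, and the first 2 passed the test.

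**Figure D2:**
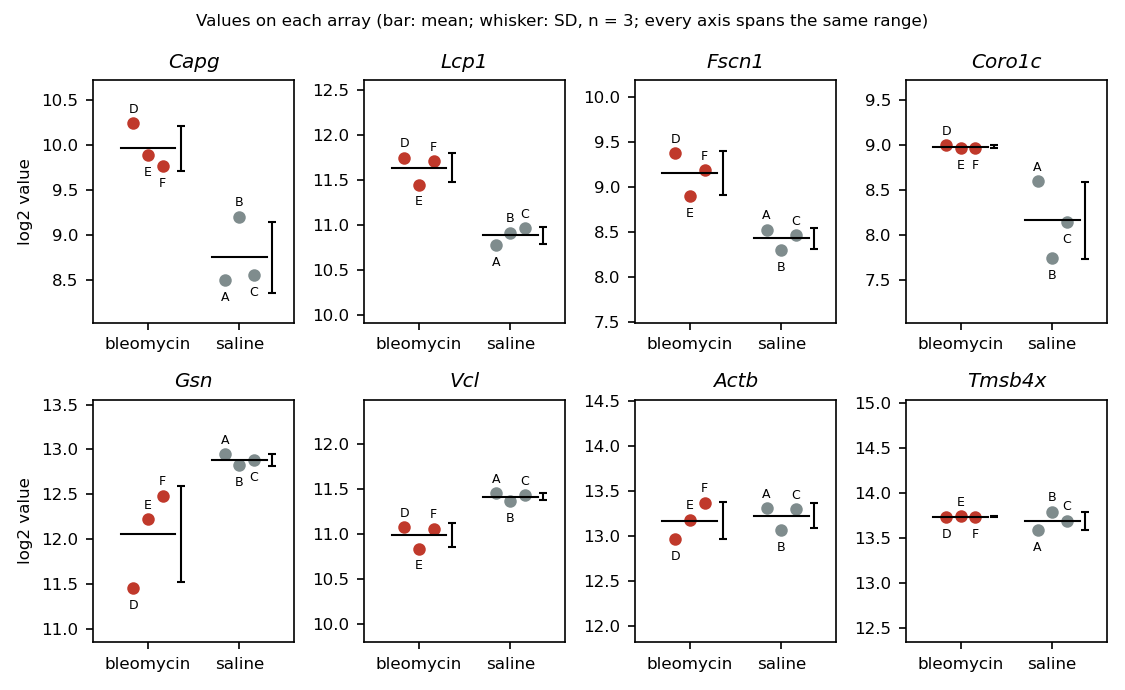
Log2 values on each array for 8 genes, with bleomycin lungs D, E and F to the left of saline lungs A, B and C; bars are group means and whiskers SDs (n = 3). Bleomycin lungs lie wholly above saline lungs for Capg, Lcp1, Fscn1 and Coro1c and wholly below them for Gsn and Vcl, of which Capg, Lcp1 and Fscn1 passed the adjusted threshold, while the groups overlap for Actb and Tmsb4x.

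The sequence around the start of transcription is shown for the 3 genes that rose, and for Vcl and Actg1, 2 of the 3 genes whose start regions hold a CArG box, the binding motif of serum response factor that is best known from actin and muscle genes. Each window runs from 250 bases before to 50 bases after the start in RefSeq's annotation of GRCm38.p6, read 5′ to 3′ on the gene's strand. Capitals mark a match, on either strand, to a CArG box, to the cyclic AMP response element TGACGTCA, to the ETS motif AGGAAGT or to the AP-1 motif TGANTCA. Lcp1 has 2 annotated starts, and both are shown. The windows lie at chr6:72549397-72549696 on the plus strand for Capg, chr14:75130873-75131172 and chr14:75136175-75136474 on the plus strand for Lcp1, chr5:142960105-142960404 on the plus strand for Fscn1, chr14:20929148-20929447 on the plus strand for Vcl and chr11:120348446-120348745 on the minus strand for Actg1.
Capg: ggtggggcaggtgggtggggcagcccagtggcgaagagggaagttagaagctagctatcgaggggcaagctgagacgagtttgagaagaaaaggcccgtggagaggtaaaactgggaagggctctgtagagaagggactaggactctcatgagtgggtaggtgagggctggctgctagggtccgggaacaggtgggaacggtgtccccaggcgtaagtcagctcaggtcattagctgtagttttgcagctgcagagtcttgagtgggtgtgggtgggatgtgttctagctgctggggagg
Lcp1, upstream start: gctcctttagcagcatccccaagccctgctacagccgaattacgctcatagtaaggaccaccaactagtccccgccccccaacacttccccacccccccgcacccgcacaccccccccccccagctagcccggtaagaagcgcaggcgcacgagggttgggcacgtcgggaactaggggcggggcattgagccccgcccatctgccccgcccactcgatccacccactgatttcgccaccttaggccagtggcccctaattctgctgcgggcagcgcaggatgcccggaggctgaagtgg
Lcp1, downstream start: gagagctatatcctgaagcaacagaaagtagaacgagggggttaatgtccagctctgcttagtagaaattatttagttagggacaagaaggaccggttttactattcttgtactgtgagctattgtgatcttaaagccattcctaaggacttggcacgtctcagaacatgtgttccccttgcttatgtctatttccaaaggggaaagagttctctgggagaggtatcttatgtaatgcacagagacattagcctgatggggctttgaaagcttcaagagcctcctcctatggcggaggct
Fscn1: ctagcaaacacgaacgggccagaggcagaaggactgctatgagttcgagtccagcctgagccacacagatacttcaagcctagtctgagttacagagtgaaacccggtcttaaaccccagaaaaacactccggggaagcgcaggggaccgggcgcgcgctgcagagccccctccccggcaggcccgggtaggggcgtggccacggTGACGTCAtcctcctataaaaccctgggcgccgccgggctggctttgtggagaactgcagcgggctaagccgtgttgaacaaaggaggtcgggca
Vcl: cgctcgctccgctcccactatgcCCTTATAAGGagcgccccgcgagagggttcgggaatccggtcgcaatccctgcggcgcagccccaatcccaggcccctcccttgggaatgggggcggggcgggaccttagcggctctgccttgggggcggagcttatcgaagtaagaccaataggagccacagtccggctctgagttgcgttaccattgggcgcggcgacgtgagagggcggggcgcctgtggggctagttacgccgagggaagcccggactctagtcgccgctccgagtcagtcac
Actg1: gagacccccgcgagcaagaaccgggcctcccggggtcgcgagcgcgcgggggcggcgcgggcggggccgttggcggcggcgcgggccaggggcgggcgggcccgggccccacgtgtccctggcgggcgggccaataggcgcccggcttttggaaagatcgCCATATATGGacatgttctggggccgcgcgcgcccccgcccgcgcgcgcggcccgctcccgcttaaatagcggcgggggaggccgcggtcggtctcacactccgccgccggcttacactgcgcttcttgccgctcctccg

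In these windows Fscn1 holds a cyclic AMP response element from base -45 to -38 relative to its start, and neither Capg nor either Lcp1 start holds any of the 4 motifs in capitals. The CArG box of Vcl lies at -227 to -218 and that of Actg1 at -90 to -81. RefSeq windows matched 34 of the 37 genes by symbol, with 44 start regions among them. A CArG box stood in 3 of the 44 (6.82%), those of Actg1, Arpc4 and Vcl, where 1.63% of all 32851 start regions hold one. The cyclic AMP response element was found in 2.27% beside 1.79% of all start regions, the ETS motif in 11.4% beside 9.35%, and the AP-1 motif in 4.55% beside 7.81%. The GC box GGGCGG, searched on both strands and left in lower case, was in 35 of the 44 start regions (79.5%) beside 35.7% of all, and it was absent from the letters of the Capg and Fscn1 windows. The 44 windows had a median GC content of 62.2%, beside 52.7% over all start regions. The downstream start of Lcp1 had 44.3% GC and its upstream start 66.3%. Matches of letters describe the windows and do not show that a factor binds there.

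The actin monomers themselves, Actb and Actg1, which nearly all cells make, showed no difference beyond the spread between mice. Actb read 12.96, 13.18 and 13.37 in bleomycin lungs D, E and F, against 13.31, 13.07 and 13.30 in saline lungs A, B and C. Actg1 read 13.36, 13.32 and 13.25 in bleomycin lungs, against 13.39, 13.10 and 13.31 in saline lungs. For both genes the groups overlapped over most of their range. The differences were -0.05 ± 0.14 for Actb (SE, limma adjusted p = 0.857), with a 95% interval of -0.36 to 0.26, and 0.04 ± 0.11 for Actg1 (adjusted p = 0.867), with an interval of -0.22 to 0.30, and each changed sign when 1 array was left out. The platform's control probe sets for Actb, placed toward the 3-prime end, the middle and the 5-prime end of the transcript, differed by 0.05, 0.21 and 0.35 (adjusted p = 0.81, 0.499 and 0.233). The probe sets read for Actb and Actg1 and the 3-prime control lie near the top of the scale, whose largest value in the table was 14.42. The middle and 5-prime controls lie lower, at 12.13 to 12.87 and 11.79 to 12.53. Whether any of them were saturated was not tested. A dimmer Actb probe set, averaging 9.32, differed by -0.27 ± 0.79 (SE, limma adjusted p = 0.876).

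The Arp2/3 complex, the nucleator of branched filaments, was measured through 5 of its genes, and 0 passed the adjusted threshold (limma; 2 were higher at an unadjusted p under 0.05). All 5 differences lay above 0, with a median of 0.22, and in 3 of them every bleomycin lung stood above every saline lung. Of all genes, 43.0% lay above 0, 13.3% were separated in this way and 11.7% were higher at that unadjusted p. Arpc4, a core subunit, differed most: it read 9.78, 10.26 and 10.11 in bleomycin lungs D, E and F, against 9.71, 8.95 and 9.38 in saline lungs A, B and C. Saline A came within a small distance of bleomycin D, and the other saline lungs lay further off. The difference was 0.70 ± 0.20 (SE, limma adjusted p = 0.0913), and the gene's other probe set gave 0.78 and passed (adjusted p = 0.015). Actr3, the actin-related subunit that forms part of the branch seed, was tighter. It was picked out after its values were seen, for the small spread of its arrays, 11.61, 11.49 and 11.51 in bleomycin lungs, against 11.09, 11.22 and 11.12 in saline lungs. Its difference was 0.40 ± 0.10 (SE, adjusted p = 0.0655), and its 3 probe sets gave 0.38 to 0.41. Arpc5 and Arpc2 differed by 0.22 and 0.17 with adjusted p of 0.295 and 0.455, and Arpc2 by 0.11 without bleomycin D. Arpc1a read 9.96, 9.81 and 9.88 in bleomycin lungs, against 10.25, 9.67 and 9.43 in saline lungs, a difference of 0.10 ± 0.19 with overlapping groups that turned negative without saline C.

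The activators of the complex comprised the leukocyte form Was, the Wiskott-Aldrich syndrome protein, and the widely made WAVE protein Wasf2. Was read 8.51, 8.13 and 8.25 in bleomycin lungs D, E and F, against 7.46, 8.02 and 7.96 in saline lungs A, B and C. Wasf2 read 11.37, 11.63 and 11.59 in bleomycin lungs, against 11.96, 11.73 and 11.66 in saline lungs. Bleomycin lungs lay wholly above saline lungs for Was and wholly below them for Wasf2, in both genes with a narrow gap between the nearest arrays. Neither passed the test: the differences were 0.48 ± 0.17 for Was (SE, limma adjusted p = 0.153) and -0.25 ± 0.13 for Wasf2 (adjusted p = 0.294). Without saline A they were 0.31 and -0.16.

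Among the other capping and severing proteins, the subunits of the heterodimeric capping protein all lay above 0, as did 43.0% of all genes, and did not pass. Capza1, picked out after its values were seen, differed by 0.62 ± 0.15 (SE, limma adjusted p = 0.0612), with 11.25, 10.84 and 10.98 in bleomycin lungs D, E and F against 10.47, 10.15 and 10.59 in saline lungs A, B and C. These groups were separate, and the gene's other probe set gave 0.57 and passed (adjusted p = 0.0495). Capzb and Capza2 differed by 0.23 and 0.15, with adjusted p of 0.271 and 0.633, and without 1 array Capza2 ranged from 0.025 (bleomycin E) to 0.31 (bleomycin D). Gsn, or gelsolin, the calcium-dependent severing protein that is also secreted into plasma, was singled out after its values were seen because it had the most negative difference of the 37 genes. It read 11.46, 12.23 and 12.49 in bleomycin lungs, against 12.95, 12.82 and 12.88 in saline lungs. All bleomycin lungs were lower, and bleomycin D was far the lowest. The difference was -0.83 ± 0.23 (SE, adjusted p = 0.0845), all 6 of its probe sets lay below 0, from -0.83 to -0.04, and without 1 array it ranged from -1.04 to -0.53, nearest to 0 without bleomycin D.

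The turnover group supplies and recycles monomers: thymosins hold monomers in store, profilin feeds them to growing ends, and cofilin with Wdr1 and the coronins strips old filaments. All 9 of its differences lay above 0, with a median of 0.36, and 0 passed the adjusted threshold (limma, with 2 higher at an unadjusted p under 0.05). Of all genes, 43.0% lay above 0 and 11.7% were higher at that unadjusted p. Coro1c, a widely made coronin of the cell edge, came nearest. It read 9.002, 8.97 and 8.97 in bleomycin lungs D, E and F, against 8.60, 7.75 and 8.15 in saline lungs A, B and C. The bleomycin lungs lay within a few hundredths of each other while the saline lungs were spread out. The difference was 0.82 ± 0.19 (SE, limma adjusted p = 0.052), and it passed without saline A (adjusted p = 0.0285). The gene's other 3 probe sets gave smaller or opposite differences, 0.52, -0.04 and -0.23.

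The other coronins gave smaller differences. Coro1a, the coronin of leukocytes, read 10.71, 10.46 and 11.01 in bleomycin lungs D, E and F, against 10.00, 10.72 and 10.43 in saline lungs A, B and C. The groups overlapped, with saline B at the level of bleomycin D, and the difference was 0.34 ± 0.20 (SE, limma adjusted p = 0.372), or 0.15 without saline A and 0.20 without bleomycin F. Coro1b, a widely made coronin that acts on branched filaments, read 10.66, 9.89 and 9.96 in bleomycin lungs, against 9.68, 9.85 and 9.47 in saline lungs. Bleomycin D stood well above all other arrays, and the difference was 0.51 ± 0.21 (SE, adjusted p = 0.206), or 0.26 without bleomycin D. Cotl1, the coactosin-like protein, given in full as 1 of the leukocyte-rich genes after its values were seen, differed by 0.36 ± 0.19 (SE, adjusted p = 0.317) with 10.72, 10.30 and 10.17 in bleomycin lungs, against 9.71, 10.24 and 10.17 in saline lungs. Saline B and C reached into the bleomycin range, and the difference was 0.19 without saline A and 0.20 without bleomycin D. All 5 probe sets of Cotl1 lay above 0, up to 0.87, with 2 passing.

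The thymosins gave small differences by their brightest probe sets. These averaged 13.72 for Tmsb4x and 13.43 for Tmsb10, near the largest value of 14.42, and whether they were saturated was not tested. Tmsb4x, the main monomer store of many cells, read 13.74 in each of the 3 bleomycin lungs, against 13.59, 13.79 and 13.70 in saline lungs A, B and C. Its difference was 0.05 ± 0.10 (SE, limma adjusted p = 0.831), which turned negative by less than a hundredth without saline A. Tmsb10 read 13.36, 13.66 and 13.47 in bleomycin lungs D, E and F, against 13.33, 13.37 and 13.40 in saline lungs. The groups overlapped at bleomycin D, and the difference was 0.13 ± 0.11 (SE, adjusted p = 0.552). The dimmer probe sets of Tmsb10 did not all say the same: the 5 gave 0.13, 0.50, 0.84, 0.18 and -0.11 from brightest to dimmest, and those at 0.50 (adjusted p = 0.0484) and 0.84 (0.016) passed. Cfl1, Wdr1 and Pfn1 differed by 0.11, 0.37 and 0.46, with adjusted p of 0.564, 0.256 and 0.59. Without saline B the difference of Wdr1 was 0.17. Pfn1, picked out after its values were seen, had the largest spread of the 37 genes, with 8.85, 10.36 and 10.48 in bleomycin lungs, against 9.77, 8.75 and 9.79 in saline lungs. Its difference was 0.12 without saline B, 0.99 without bleomycin D, 0.23 without bleomycin E and 0.17 without bleomycin F.

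How a gene was read mattered for this list, since 23 of the 37 genes had several probe sets. Counting a gene when any of its probe sets passed, a rule added after the data were seen, gave 8 of 37 genes higher (21.6%) and 0 lower. By that rule 4.47% of all genes were higher, but the list has 2.35 probe sets per gene and all genes have 1.64, so the shares are not on equal terms. The 5 genes that this rule added were Arpc4, Capza1, Wdr1, Tmsb10 and Cotl1. Averaging all probe sets of a gene gave 7 called higher, where 4.41% of all genes were called higher by the same rule.

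Apart from Lcp1 and Fscn1, none of the bundling and cross-linking proteins passed at an adjusted or an unadjusted p under 0.05. Pls3, the plastin of cells other than leukocytes, read 9.57, 9.79 and 9.58 in bleomycin lungs D, E and F, against 9.84, 9.74 and 9.86 in saline lungs A, B and C. Bleomycin E reached into the saline range, and the difference was -0.17 ± 0.11 (SE, limma adjusted p = 0.425). The alpha-actinins Actn1 and Actn4, which space filaments in stress fibres and at junctions, differed by 0.28 and -0.08, and filamin A, Flna, which crosses filaments into nets, by 0.21. Their adjusted p were 0.271, 0.773 and 0.448, and the groups overlapped for each. Without bleomycin D the difference of Flna was 0.11, and without saline A it was 0.33.

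Of the tropomyosins, which wrap filaments and set which myosins can use them, 0 of 4 passed the adjusted threshold (limma), 2 were higher at an unadjusted p under 0.05, and the same 2 had all bleomycin lungs above all saline lungs. The shares of all genes were 11.7% at that unadjusted p and 13.3% with such a separation. Tpm1 read 11.34, 10.60 and 10.77 in bleomycin lungs D, E and F, against 10.42, 10.29 and 10.19 in saline lungs A, B and C. Bleomycin D was much the highest array, and the difference was 0.60 ± 0.19 (SE, limma adjusted p = 0.108), or 0.39 without that array. Other Tpm1 probe sets gave 0.71 and -0.39. Tpm4, the tropomyosin of non-muscle cells, differed by 0.28 (adjusted p = 0.194). Tpm3 and Tpm2 differed by 0.04 and 0.01, and both changed sign under several alternatives. Summed markers of smooth muscle, which is rich in tropomyosin, overlapped between the groups at 51.8 to 54.6 in bleomycin lungs and 52.5 to 54.8 in saline lungs, with 0 of 6 markers called. The sum joins unlike moves, as 3 of the markers differed above 0 and 3 below. The part of smooth muscle in the tropomyosin values was not tested.

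By their brightest probe sets, the membrane and adhesion linkers were the role group with every difference below 0, with a median of -0.24 over 4 genes. None passed the adjusted threshold (limma, with 1 lower at an unadjusted p under 0.05). Of all genes, 43.0% lay above 0 and 11.0% were lower at that unadjusted p. Vcl, or vinculin, which couples filaments to integrin and cadherin adhesions, read 11.08, 10.84 and 11.06 in bleomycin lungs D, E and F, against 11.46, 11.37 and 11.43 in saline lungs A, B and C. The groups were clearly separate, and the saline lungs lay close together. The difference was -0.43 ± 0.11 (SE, limma adjusted p = 0.0677), but the gene's dimmer probe set pointed the other way at 0.48, and the mean of both was 0.03. The ERM proteins link filaments to the plasma membrane. Rdx differed by -0.38 (adjusted p = 0.279, and -0.21 without bleomycin D), Ezr by -0.09 (0.819) and Msn by -0.02 (0.959), and Ezr and Msn changed sign when single arrays were left out. The dimmer probe set of Msn gave 0.58 (limma adjusted p = 0.106).

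Marker lists picked because their sums were lower in bleomycin lungs are set beside Gsn and Vcl, so the shared direction follows from the choice. The other lists overlapped between the groups or were higher in bleomycin lungs, and are given in other paragraphs. Of all genes, 1.90% were called lower. The summed log2 values of 4 endothelial markers were 39.5 to 40.5 in bleomycin lungs and 41.0 to 43.1 in saline lungs, with 1 of 4 called lower, the VEGF receptor Kdr at -0.86 (limma adjusted p = 0.0148), a call lost without saline A and without bleomycin F. For 4 platelet markers the sums were 32.3 to 33.9 in bleomycin lungs and 34.7 to 35.8 in saline lungs, with 0 of 4 called. For 3 airway markers they were 35.9 to 36.3 in bleomycin lungs and 36.8 to 37.4 in saline lungs, with 1 of 3 called lower, the club cell enzyme Cyp2f2 at -0.66, a call kept in 1 of the 6 fits without 1 array and lost without saline B (adjusted p = 0.0639) and without bleomycin D (0.0984). The part of these cell types in the values of Gsn and Vcl was not tested.

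Set against each other, the leukocyte-restricted genes had a median difference of 0.48 over 3 genes, the leukocyte-rich genes 0.79 over 2, and the general genes 0.14 over 32, beside -0.04 over all genes. Genes called higher numbered 1 of 3, 1 of 2 and 1 of 32, beside 3.70% of all genes. The share of the general genes called, 3.13%, is near that background, but their other shares were not. Of the general genes, 71.9% lay above 0, beside 43.0% of all genes. Every bleomycin array stood above every saline array for 34.4%, beside 13.3%, and below for 9.38%, beside 14.6%. At an unadjusted p under 0.05 (limma), 25% were higher, beside 11.7%, and 6.25% lower, beside 11.0%. Without saline B the 3 medians were 0.59, 0.95 and 0.11, and without bleomycin D they were 0.38, 0.63 and 0.12. The leukocyte-restricted median was lowest without saline A, at 0.31. On single arrays, relative to the saline mean of each gene, the median of the leukocyte-restricted genes was 0.69, 0.32 and 0.63 in bleomycin lungs D, E and F, against -0.36, 0.21 and 0.08 in saline lungs A, B and C. The leukocyte-rich genes stood at 1.09, 0.70 and 0.57 in bleomycin lungs, against -0.29, 0.33 and -0.03 in saline lungs. By these medians, in both groups of genes every bleomycin lung was above every saline lung, saline A was the lowest array and saline B the highest of the saline lungs. Taken singly, Coro1a and Cotl1 overlapped between bleomycin and saline lungs. The general genes stood at 0.08, 0.10 and 0.14 in bleomycin lungs, against 0.11, -0.10 and 0.00 in saline lungs, so that saline A lay within the bleomycin range. The gene groups are small and no test was made between them.

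Related genes were compared within each array, which asks whether the members of a pair moved by unequal amounts. There were 6 such pairs, each tested by a two-sided exact permutation test whose smallest possible p with 3 lungs against 3 is 0.1. For Lcp1 minus Pls3 the values relative to the saline mean were 1.10, 0.59 and 1.05 in bleomycin lungs D, E and F, against -0.13, 0.10 and 0.03 in saline lungs A, B and C. The leukocyte plastin thus stood higher relative to the other plastin in all 3 bleomycin lungs, by 0.92 ± 0.18 (SE, exact permutation p = 0.1, 0.3 after adjustment over the 6 pairs). The difference was 0.97 without saline B and 0.82 without bleomycin D. For Was minus Wasf2 the values were 1.10, 0.47 and 0.64 in bleomycin lungs, against -0.53, 0.27 and 0.27 in saline lungs. Again the groups were separate, with a difference of 0.74 ± 0.33 (SE, exact permutation p = 0.1, adjusted 0.3), which was 0.87 without saline B, 0.55 without bleomycin D and 0.47 without saline A. No such separation was seen among the coronins, where Coro1a minus Coro1b differed by -0.16 ± 0.35 and Coro1a minus Coro1c by -0.47 ± 0.48 (SE, exact permutation p = 0.7 and 0.5, adjusted 0.7 for both). Without saline B they were -0.089 and -0.096, and without saline A -0.36 and -0.88. Tmsb10 minus Tmsb4x differed by 0.08 ± 0.10 and Actg1 minus Actb by 0.09 ± 0.15 (exact permutation p = 0.5 and 0.7, adjusted 0.7 for both), and without 1 array they ranged from 0.0039 to 0.15 and from -0.034 to 0.22.

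**Figure D3:**
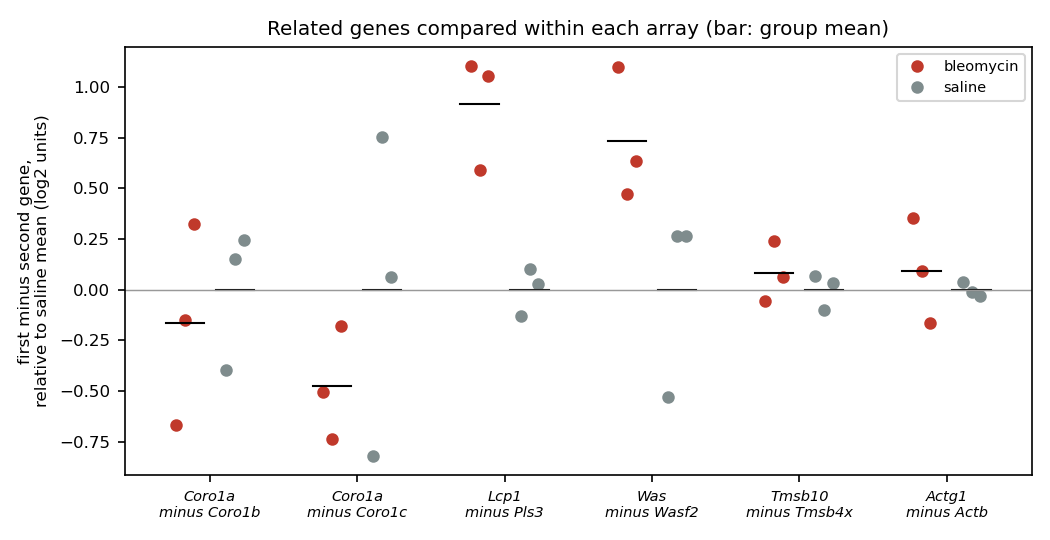
First minus second gene of each of 6 pairs on every array, on the log2 scale and relative to the mean of the saline lungs, with bleomycin lungs left of saline lungs in each pair; bars are group means. Bleomycin lungs lie wholly above saline lungs for Lcp1 minus Pls3, from 0.59 to 1.10, and for Was minus Wasf2, from 0.47 to 1.10, and overlap them in the other 4 pairs.

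Summed markers of leukocytes in general and of macrophages were higher in bleomycin lungs, while those of the other leukocyte lists overlapped between the groups. Whether markers and actin genes moved together across arrays was not tested. Of all genes, 3.70% were called higher and 1.90% lower. Of 6 markers of leukocytes in general, 5 rose, led by the integrin chain Itgb2 at 1.67 (limma adjusted p = 0.00379) and the surface protein Cd48 at 1.36 (adjusted p = 0.019), and the summed level of the 6 was 66.8 to 68.1 in bleomycin lungs and 59.3 to 62.9 in saline lungs. Of 6 macrophage markers, 4 rose, led by the lysosomal protein Cd68 at 2.68 (adjusted p = 0.00132) and the adaptor Tyrobp at 1.27 (adjusted p = 0.0277), with sums of 65.2 to 65.8 in bleomycin lungs and 57.2 to 60.4 in saline lungs. Leaving out 1 array at a time, the calls of Itgb2 and Cd68 were kept in all 6 fits and those of Cd48 and Tyrobp in 3, with Tyrobp lost without saline B (adjusted p = 0.0518). Saline A had the lowest sum in both lists. The leukocyte marker Ptprc and the macrophage markers Lyz2 and Csf1r were not called. Ptprc differed by 0.34 and Lyz2 by 0.14, with overlapping groups (limma adjusted p = 0.335 and 0.499). Csf1r differed by 0.27, with every bleomycin lung above every saline lung (adjusted p = 0.282), and 2 of its 3 probe sets passed. Markers of T and NK cells (4 measured), B cells (3) and neutrophils (4) had 0 called, and their sums overlapped, at 29.5 to 31.4, 24.6 to 28.2 and 33.3 to 40.0 in bleomycin lungs beside 28.9 to 32.0, 26.2 to 28.9 and 35.0 to 38.5 in saline lungs. Fibroblast markers had 3 of 5 called higher, led by the collagen chain Col1a1 at 2.10 and the matrix protein Lum at 1.24, with sums of 53.4 to 56.4 in bleomycin lungs and 49.9 to 52.1 in saline lungs. Of those not called, Dcn differed by 0.10 with overlapping groups. Pdgfra differed by -0.38, with every bleomycin lung below every saline lung (limma adjusted p = 0.271). Without 1 array the call of Col1a1 was kept in 5 of 6 fits and that of Lum in 2, lost among others without saline B (adjusted p = 0.0622) and without bleomycin D (0.0617). The type 1 cell gene Hopx, at -0.44, was the 1 of 6 alveolar epithelial markers called, with sums of 75.1 to 76.9 in bleomycin lungs and 76.6 to 77.7 in saline lungs, and it kept its call in 0 of the 6 fits without 1 array (limma adjusted p = 0.0822 to 0.16). Mesothelial, cardiac and skeletal muscle lists had 0 of 3 called each, with sums of 22.0 to 23.0, 24.8 to 27.7 and 16.5 to 18.3 in bleomycin lungs beside 19.6 to 22.7, 26.8 to 30.2 and 16.77 to 16.85 in saline lungs. On this scale no marker reads 0, and the part of cell numbers in the rise of Capg, Lcp1 and Fscn1 was not tested.

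**Figure D4:**
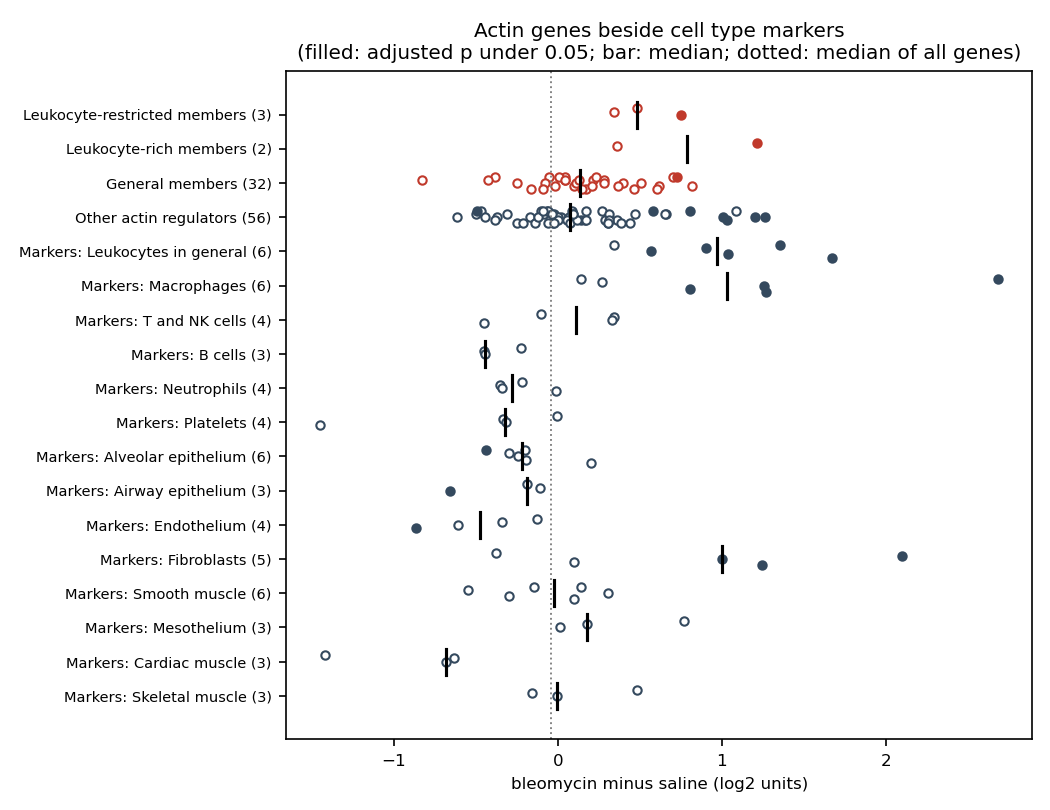
Difference between bleomycin and saline lungs on the log2 scale for the actin genes in red and, in dark blue, for other actin regulators and for markers of each cell type, 1 point per gene with the number measured in brackets. Filled points passed the adjusted p threshold of 0.05, black bars are list medians and the dotted line is the median of all genes, -0.04. The medians were 0.48 for leukocyte-restricted, 0.79 for leukocyte-rich and 0.14 for general genes. Among the marker lists they were 0.97 for leukocytes in general, 1.03 for macrophages and 1.00 for fibroblasts. They were 0.11 for T and NK cells, -0.44 for B cells and -0.28 for neutrophils.

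Further genes that steer actin were read from a list of 64, of which 56 were measured. Of these 6 rose and 1 fell (10.7% and 1.79%), beside 3.70% and 1.90% of all genes, and the median difference was 0.07. Aif1, an actin-bundling protein of macrophages, read 8.13, 7.76 and 8.01 in bleomycin lungs D, E and F, against 6.55, 6.76 and 6.79 in saline lungs A, B and C. That is a 2.40-fold rise with wide separation (log2 difference 1.27 ± 0.13 SE, limma adjusted p = 0.00214). Myo1f, a single-headed myosin of leukocytes, read 8.97, 8.68 and 8.77 in bleomycin lungs, against 7.55, 7.98 and 7.79 in saline lungs, a log2 difference of 1.03 ± 0.14 (SE, adjusted p = 0.00745). The other genes that rose were Marcksl1, a membrane-bound actin regulator, by 1.20 (adjusted p = 0.0188), Hcls1, the cortactin relative of blood cells, by 1.01 (0.0198), Nckap1l, the WAVE complex subunit of blood cells, by 0.80 (0.011), and Vav1, a blood cell exchange factor for Rac, by 0.58 (0.0193). Without 1 array the calls of Aif1, Myo1f and Nckap1l were kept in all 6 fits, that of Marcksl1 in 5 (lost without bleomycin F), that of Vav1 in 3 (lost without saline A, saline C or bleomycin F) and that of Hcls1 in 2 (lost without saline A, saline C, bleomycin D or bleomycin F). Enah, which lengthens filaments at the cell edge, fell by 0.49 (adjusted p = 0.0335), a call lost in each of the 6 fits without 1 array. The switch proteins that start these pathways did not pass: Rac2, the Rac of blood cells, differed by 0.66 (adjusted p = 0.0963), Rhoa by 0.27 (0.28; 0.15 without bleomycin D), Rac1 by 0.09 (0.795) and Cdc42 by 0.07 (0.794).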

How the data were processed

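Total RNA of whole lung was measured on 6 Affymetrix MOE430A arrays, 3 bleomycin and 3 saline, 1 per mouse. The authors deposited 1 log2 value for each probe set and array, obtained by RMA with quantile normalization according to the design text; the submitters' processing notes also name RMA. Its version and the definition of the chip's probe sets were not given in the sources used here. No raw scans were used, so background and saturation were not examined.

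The table held 22690 probe sets, of which 64 controls were left out and 22626 tested. Gene symbols came from the platform annotation, with 20351 probe sets matched to RefSeq by Entrez ID. Probe sets with several symbols (691) or none (1555) were not named. Bleomycin was compared with saline by limma 3.58.1 in R 4.3.3 (lmFit and eBayes, no covariates), with Benjamini-Hochberg adjustment over all 22626 probe sets and a threshold of 0.05; the script was checked on simulated data. Pairs of related genes were tested with scipy 1.17.1 and adjusted over 6 pairs, since the seventh planned pair, Arpc1b with Arpc1a, had no probe set for Arpc1b. The arrays' number limits the precision. Arrays of a group are different mice.

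Named with values on each array were the genes called, both genes of a pair, Actb, Actg1 and the largest difference of each role group, and, chosen after their values were seen, Actr3, Capza1, Gsn, Cotl1 and Pfn1; of the other actin regulators, the genes called with Rac1, Rac2, Rhoa and Cdc42; of each marker list, up to 2 called genes. The fibroblast markers Dcn and Pdgfra, the leukocyte marker Ptprc and the macrophage markers Lyz2 and Csf1r, which were not called, were also named after their values were seen. The members and lists were chosen with earlier results of these data known. Alternatives were other probe set rules, array weights, another prior, no prior, a stricter threshold, a filter on the dimmest 25% of probe sets, a second round of quantile normalization, centring on 47 ribosomal protein genes and leaving out each array.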

Additional observations from a re-analysis of the deposited data

How the results depend on the processing

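With 3 mice per group, the count of genes called higher moved with the method. Against 3 called higher, beside 3.70% of all genes, array weights gave 7, beside 4.83%, the mean of all probe sets of a gene 7, beside 4.41%, and any probe set of a gene, added after the data were seen, 8, beside 4.47%. A threshold of 0.01 gave 0, beside 1.15% of all genes. Limma without its shared prior gave 0 at an adjusted p under 0.05, where only 1 of all 12393 genes was called higher. Leaving out 1 array gave 1 to 3, beside 1.32% to 3.11% of all genes. Against 0 called lower, array weights and repeated quantile normalization each gave 1, which was Vcl. In these settings 341 and 310 of all 12393 genes were called lower, against 236 in the main fit. The median difference over all 37 genes, 0.21, was 0.13 after repeated quantile normalization, 0.28 with the mean of all probe sets, and 0.14 to 0.23 without 1 array, lowest without saline B. The median of the general genes, 0.14, was 0.24 with the mean of all probe sets. Capg and Lcp1 each kept their call under 11 of 15 alternatives and Fscn1 under 6, losing it also when centred on ribosomal protein genes (adjusted p = 0.0563) and with its dimmest probe set (0.361).

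Signs turned as follows, in differences that passed in neither form, and the cause was not tested beyond the settings named. With the dimmest probe set the differences were 0.023 for Coro1a minus Coro1c, -0.16 for Tmsb10 minus Tmsb4x, -0.017 for Coro1a, -0.039 for Coro1c, -0.11 for Tmsb10, -0.39 for Tpm1, 0.48 for Vcl, -0.44 for Cdc42, -0.31 for Capzb, -0.23 for Tpm3 and 0.58 for Msn. With the mean of all probe sets they were 0.029 for Vcl, -0.0078 for Tpm2, -0.068 for Tpm3 and 0.28 for Msn. Repeated quantile normalization gave -0.0021 for Rac1, -0.021 for Cdc42, -0.079 for Tpm2 and -0.070 for Tpm3. Array weights gave 0.039 for Actb and 0.071 for Msn, and centring on ribosomal protein genes gave -0.032 for Tpm2.

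Leaving out 1 array also turned signs. The differences ranged from -0.41 to 0.089 for Coro1a minus Coro1b and from -0.034 to 0.22 for Actg1 minus Actb, each turned without bleomycin D. They ranged from -0.15 to 0.052 for Actb (turned without bleomycin D), from -0.042 to 0.10 for Actg1 (saline B), from -0.078 to 0.33 for Arpc1a (saline C) and from -0.0053 to 0.097 for Tmsb4x (saline A). The ranges were -0.19 to 0.028 for Actn4, -0.0071 to 0.082 for Tpm3, -0.086 to 0.19 for Rac1 and -0.023 to 0.13 for Cdc42, all turned without saline B. For Tpm2 the range was -0.091 to 0.13 (turned without bleomycin F, saline C or saline B), for Msn -0.15 to 0.13 (saline A, bleomycin D or bleomycin E) and for Ezr -0.30 to 0.056 (saline C or bleomycin D).

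No paired analysis was possible because each array has a letter of its own and the groups share no replicate number. The pair Arpc1b minus Arpc1a was not run, as Arpc1b had no probe set with 1 symbol.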

Other observations

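Pairs of a blood cell form and a wider form were also seen among the other actin regulators. These 5 pairs were chosen after the values of their genes were seen, so they are described without a test. Relative to the saline mean, Myo1f minus its wider relative Myo1e stood at 1.83, 1.19 and 1.48 in bleomycin lungs D, E and F, against -0.09, 0.24 and -0.16 in saline lungs A, B and C. For Fermt3, the integrin activator of blood cells, minus Fermt2 the values were 1.91, 1.01 and 0.88 in bleomycin lungs, against -0.29, 0.31 and -0.02 in saline lungs. Nckap1l minus Nckap1, subunits of the WAVE complex, stood at 0.81, 1.07 and 0.94 in bleomycin lungs, against -0.37, 0.39 and -0.01 in saline lungs. For Hcls1 minus its relative Cttn the values were 0.82, 0.80 and 0.92 in bleomycin lungs, against -0.28, 0.37 and -0.09 in saline lungs. In these 4 pairs the bleomycin lungs lay wholly above the saline lungs. Rac2 minus Rac1 overlapped, with 0.62, 0.37 and 0.72 in bleomycin lungs, against -0.52, 0.69 and -0.17 in saline lungs, where saline B was the array that reached the bleomycin range.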
